A study of Mus musculus with 8 samples.

Results

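Clathrin-mediated endocytosis is the pathway in which PICALM acts, and this section follows the genes of its coat and adaptors in hematopoietic cells with and without PICALM. A list of 40 mouse genes was taken by symbol from the probe annotation of the array: the clathrin chains, subunits of the AP-1, AP-2 and AP-3 adaptor complexes, the relatives of PICALM, early scaffold proteins, cargo adaptors, dynamins, membrane-bending proteins and regulators of AP-2. Of these, 38 were measured among 12393 genes with a probe set of a single symbol. Fcho2 and Pacsin2 had none and were not analysed here. Each gene was represented by 1 probe set, the one with the highest mean log2 signal over the 8 arrays.

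RNA came from 4 hematopoietic cell lines, PICALM6A, PICALM6B, PICALM6D and PICALM84 (here 6A, 6B, 6D and 84), each derived from fetal liver of embryonic day 14 (E14) embryos. The embryos carried the fit1 allele Picalm fit1-5R, which leaves the mouse protein non-functional, on the B6(Cg)-TyrC-2J/J background, and every line was immortalized with the fusion oncogene MLL-ENL in a vector that also expresses green fluorescent protein. Each line was measured once after transduction with an empty MSCVneo retrovirus (the Picalm -/- group, 4 arrays) and once after transduction with human PICALM cDNA in the same vector (the PICALM-rescued group, 4 arrays). Both groups thus shared the mutation, the oncogene, selection with G418 and culture in interleukin-3 at 5 ng/ml and stem cell factor at 50 ng/ml. No wild-type cells were analysed here, and the retroviral promoter, not the Picalm locus, drove the rescuing cDNA, so its level may have been above the normal one. Picalm itself has no probe set under that symbol in the annotation and goes unreported, which leaves the labels unchecked by the targeted gene.

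A clathrin coat is a lattice of triskelia, each built from heavy and light chains, and it does not bind membrane by itself. Adaptors connect it: AP-2 binds phosphoinositides and cargo at the plasma membrane, AP-1 and AP-3 serve the trans-Golgi network and endosomes, and monomeric adaptors with an ANTH or ENTH domain, among them PICALM and its neuronal relative AP180 (encoded by Snap91), bind such lipids, clathrin and selected cargo. Dynamin then cuts the neck of the pit, and kinases and chaperones help remove the coat. In blood cells the pathway takes up the transferrin receptor, cytokine receptors and lipoprotein receptors. One question was whether relatives of PICALM differed in cells that lack it.

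In these arrays most coat genes had nearly the same mRNA level with and without PICALM. With cell line as a block in limma, 0 of the 38 members passed an adjusted p of 0.05, against 4 of all 22626 probe sets (0.0177%). Paired SAM at the FDR threshold of the methods also called 0 of the 38, while it called 2.70% of all probe sets. Without adjustment, 3 of the 38 had a p under 0.05 in limma, Ap2s1, Hip1 and Dab2, a share of 7.89% beside 13.1% of all genes. For 30 of the 38 the mean log2 difference, rescued minus Picalm -/-, was under 0.1 in size. The 95% interval of the difference lay within a 1.2-fold change in either direction for 31 of the 38 members, and within 1.5-fold for 36. The exceptions to the wider bound were Hip1 and Dab2, both with lower means in the rescued cells.

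The small differences that were present leaned upward. A total of 29 members had a mean above 0 and the median difference was 0.050, beside 0.0061 over all 12393 genes, both on the log2 scale. The median was close to the same in each line, 0.042 in 6A, 0.031 in 6B, 0.039 in 6D and 0.037 in 84. In the rescued array of all 4 lines, 13 of the 38 members were higher (34.2%, beside 13.4% of all genes) and 2, Dab2 and Sh3gl1, were lower (5.26%, beside 12.0%). Leaving out the dimmest 40% of probe sets, 12 of 32 members were higher in every line (37.5%, beside 15.8% of the remaining genes). These counts describe direction only, and many of the differences behind them were a few hundredths of a log2 unit. With quantile normalization the member median was 0.042, and with arrays centred on their own median it was 0.058. The array medians of the deposited RMA values already lay within 7.32 to 7.35. These settings could thus change little, and a part of the RMA normalization in the lean was not tested. The lean was weaker in other probe sets of the same genes. For the 24 members with a second probe set, the brightest gave a median of 0.050 with 8 higher in every line, and the second-brightest gave 0.015 with 2, Ap2a2 and Eps15.

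**Figure D1:**
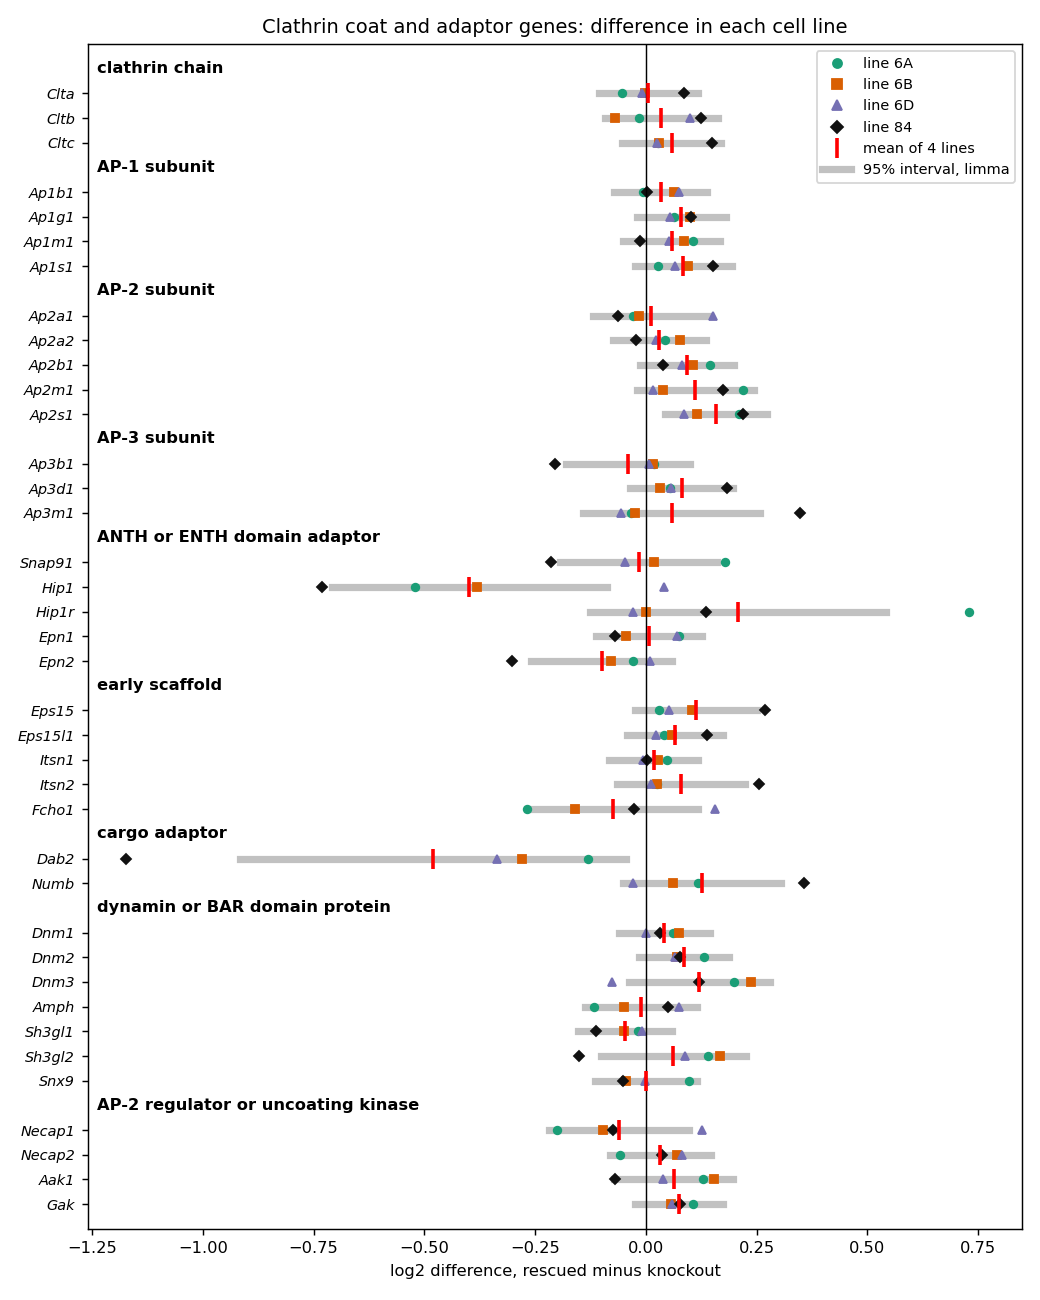
Log2 difference, rescued minus Picalm -/-, for the 38 measured members, grouped by role. Symbols are the 4 cell lines, the red tick is their mean and the grey bar the 95% interval from limma with cell line as a block. Most intervals include 0 and stay narrow, while those of Hip1, Hip1r and Dab2 are wide, with line 84 at -1.17 for Dab2 and line 6A at 0.73 for Hip1r.

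The promoters of 4 members are shown because the results turn on these genes: Ap2s1, Hip1 and Dab2 had the lowest p among the members, and Snap91 encodes the closest relative of PICALM. Each line holds the 250 bases before the first RefSeq transcription start of the gene in the mouse build GRCm38.p6, read 5′ to 3′ on the strand of the gene. Hip1 and Dab2 have a second start in the table, which is not shown. Capitals mark matches, on either strand, to the GC box GGGCGG, the ETS motif CCGGAAGT, the E-box CACGTG, the sterol regulatory element TCACNCCAC or the CCAAT box CCAAT. None of these motifs overlapped another in the windows shown.
Ap2s1, chr7:16738194-16738443 (+ strand): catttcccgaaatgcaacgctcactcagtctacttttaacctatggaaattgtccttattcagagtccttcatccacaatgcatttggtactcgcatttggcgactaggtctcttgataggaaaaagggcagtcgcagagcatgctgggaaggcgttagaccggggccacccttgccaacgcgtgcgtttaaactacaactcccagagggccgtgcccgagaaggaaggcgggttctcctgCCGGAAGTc
Hip1, chr5:135545123-135545372 (- strand): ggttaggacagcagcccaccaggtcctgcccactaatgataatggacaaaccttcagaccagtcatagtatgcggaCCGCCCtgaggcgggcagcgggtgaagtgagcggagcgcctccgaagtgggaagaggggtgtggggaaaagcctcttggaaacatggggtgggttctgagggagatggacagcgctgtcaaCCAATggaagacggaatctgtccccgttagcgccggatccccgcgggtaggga
Dab2, chr15:6299539-6299788 (+ strand): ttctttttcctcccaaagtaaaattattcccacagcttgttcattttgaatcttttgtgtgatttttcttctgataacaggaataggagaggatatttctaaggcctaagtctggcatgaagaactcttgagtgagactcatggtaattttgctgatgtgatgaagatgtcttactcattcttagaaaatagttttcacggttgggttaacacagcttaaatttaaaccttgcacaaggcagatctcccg
Snap91, chr9:86880709-86880958 (- strand): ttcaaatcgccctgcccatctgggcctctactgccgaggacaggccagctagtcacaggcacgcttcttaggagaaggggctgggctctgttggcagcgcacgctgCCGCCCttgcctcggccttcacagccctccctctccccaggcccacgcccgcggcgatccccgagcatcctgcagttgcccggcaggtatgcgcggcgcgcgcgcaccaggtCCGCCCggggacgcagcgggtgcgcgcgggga

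The windows differ in kind. Dab2 has 2 CpG dinucleotides and a GC content of 36.8%, and none of the searched motifs, whereas Ap2s1 has 14 CpG and the ETS motif close to the start, Hip1 has 14 CpG with a GC box and a CCAAT box, and Snap91 has 26 CpG and 2 GC boxes. Of the 38 measured members, 35 had a promoter in the table, and their median was 18 CpG, beside 6 over 27025 promoters of the same length. Those 27025 were not limited to genes measured on the array, nor matched to the members by signal. The GC box was in 23 of the 35 (65.7%, beside 33.0% of all promoters) and the CCAAT box in 11 (31.4%, beside 34.5%). The sterol regulatory element was in 1, Sh3gl1 (all promoters, 1.03%), the ETS motif in 1, Ap2s1 (all promoters, 2.92%), and the E-box in 3, Ap2m1, Epn1 and Eps15l1 (all promoters, 6.04%). Such matches are letters in a window and say nothing of what binds there.

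Among the relatives of PICALM, none was called. Snap91, which encodes AP180, was dim in these cells, with log2 levels of 4.62, 4.91, 4.80 and 5.02 in the Picalm -/- arrays and 4.80, 4.92, 4.76 and 4.80 in the rescued arrays of lines 6A, 6B, 6D and 84, in that order, which is kept below. Only 15.5% of probe sets were dimmer, and both groups lay at that low level. The difference was -0.016 (95% interval -0.19 to 0.16, adjusted p = 0.939), higher in 2 lines and lower in the other 2, and its interval ran from 1.14-fold higher in the Picalm -/- cells to 1.12-fold higher in the rescued cells. These limits hold for the signal of a dim probe set.

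The epsins bind the same lipid through an ENTH domain and carry ubiquitinated cargo. Epn1 was at 8.54, 8.64, 8.57 and 8.59 in the Picalm -/- arrays and 8.62, 8.59, 8.64 and 8.52 in the rescued arrays. The 8 values stayed within 8.52 to 8.64, and the difference was 0.0073 (95% interval -0.11 to 0.13, adjusted p = 0.960), with limits of 1.08-fold higher in the Picalm -/- cells and 1.09-fold higher in the rescued cells. Epn2 was at 6.23, 6.16, 6.15 and 6.35 in the Picalm -/- arrays and 6.21, 6.08, 6.16 and 6.05 in the rescued arrays, in the dimmest 40% of probe sets. Its difference was -0.100 (95% interval -0.26 to 0.060, adjusted p = 0.548), to which line 84 contributed the most, -0.30.

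Hip1 had the larger mean in cells without PICALM. It encodes an ANTH-domain protein that binds clathrin and AP-2 and, with its relative Hip1r, connects coats to actin. Hip1 was at 8.68, 8.36, 7.94 and 7.55 in the Picalm -/- arrays and 8.16, 7.98, 7.98 and 6.82 in the rescued arrays. The rescued array was lower in 6A, 6B and 84 and not in 6D, and the groups overlapped, since the lines themselves lay 1.14 apart in the Picalm -/- arrays. The mean level was 1.32-fold (95% interval 1.06 to 1.63) higher in the Picalm -/- cells, a log2 difference of -0.40 with an adjusted p of 0.344, which did not pass. An exact permutation test over the 16 sign changes of the lines gave p = 0.25 (two-sided, and 0.125 is the smallest that 4 lines allow).

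The array holds 3 probe sets for Hip1, and they did not move alike. The second brightest (1424755_at) was lower in the rescued array of all 4 lines, with a mean difference of -0.32 (95% interval -0.52 to -0.13, adjusted p = 0.318), and was called by paired SAM. The dimmest (1424756_at) had a difference of 0.019 (95% interval -0.14 to 0.18, adjusted p = 0.919). Hip1 thus differed in size or direction with the probe set chosen. Over the alternatives run, none of which used the dimmest probe set alone, its difference ran from -0.59 to -0.093. The lowest adjusted p among them was 0.245. The value nearest 0 came when the rescued array of line 84 was left out of the fit without pairing. The Picalm -/- array of that line, the lowest of its group, stayed in that fit. With line 84 left out of both groups, the paired difference was -0.29.

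Hip1r varied more between lines than between groups. Its levels were 7.14, 7.41, 7.42 and 8.70 in the Picalm -/- arrays and 7.87, 7.41, 7.39 and 8.84 in the rescued arrays. Line 84 was above the other lines in both groups, while in 6A the rescued array was 0.73 higher and in 6B and 6D the arrays of a line lay within 0.029 of each other. The mean difference of 0.21 (95% interval -0.13 to 0.54, adjusted p = 0.550) was mostly that of line 6A. In the paired fit it was 0.035 without line 6A and 0.23 without line 84. A fit without pairing that left out only the rescued array of line 84 gave -0.11. That fit kept the high Picalm -/- array of line 84, so it compared unlike sets of lines.

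**Figure D2:**
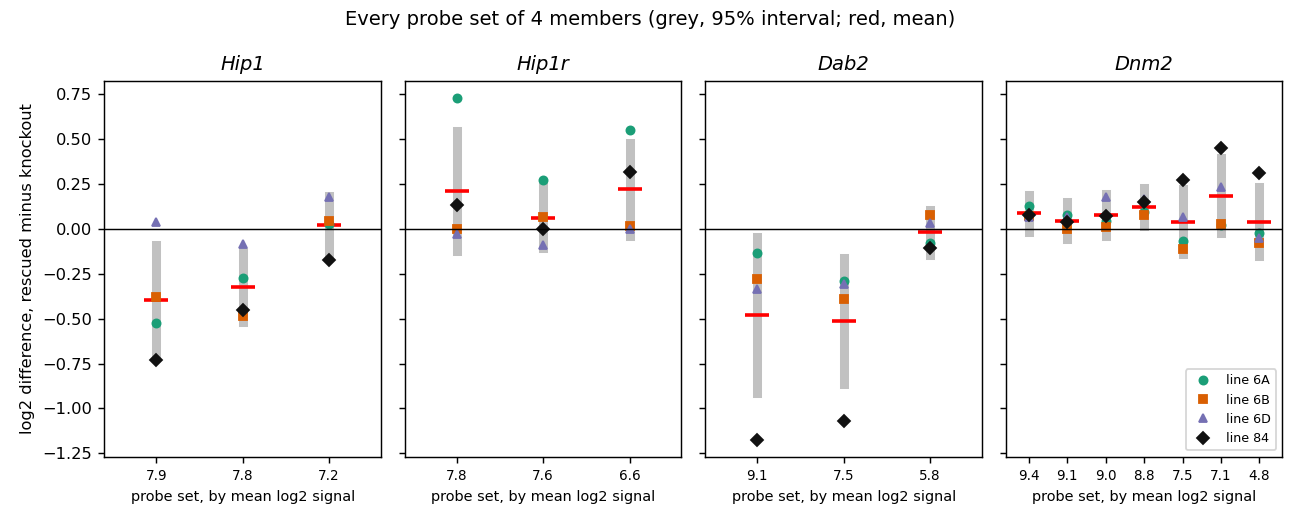
Log2 difference, rescued minus Picalm -/-, for every probe set of Hip1, Hip1r, Dab2 and Dnm2, ordered by mean log2 signal, which is written under each. Symbols are the 4 lines, red dashes the mean and grey bars the 95% interval. The brighter probe sets of Hip1 and Dab2 lie mostly below 0, while the dimmest of each has a mean of 0.019 and -0.019.

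None of the clathrin chains was called, and the light chains had small differences. The heavy chain Cltc was at 12.15, 12.19, 12.13 and 12.07 in the Picalm -/- arrays and 12.18, 12.22, 12.15 and 12.21 in the rescued arrays. Its rescued array was higher in every line, by 0.026 to 0.15, for a mean of 0.058 (95% interval -0.054 to 0.17, adjusted p = 0.613). The light chain Clta was at 13.45, 13.39, 13.40 and 13.28 in the Picalm -/- arrays and 13.40, 13.39, 13.39 and 13.37 in the rescued arrays, with a difference of 0.0053 (95% interval -0.11 to 0.12, adjusted p = 0.970). Cltb, the other light chain, was at 8.54, 8.29, 8.29 and 8.16 in the Picalm -/- arrays and 8.53, 8.22, 8.39 and 8.29 in the rescued arrays, with a difference of 0.035 (95% interval -0.093 to 0.16, adjusted p = 0.805) that had opposite signs in different lines. The upper limits of their intervals were 1.08-fold for Clta, 1.12-fold for Cltb and 1.13-fold for Cltc.

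Within AP-2, the complex that PICALM works beside at the plasma membrane, the medium, small and beta subunits were higher in the rescued array of every line by their brightest probe sets. The alpha subunits were not, although other probe sets of Ap2a2 gave larger differences. The small subunit Ap2s1, part of the core that binds dileucine cargo, was at 11.39, 11.40, 11.39 and 11.10 in the Picalm -/- arrays and 11.60, 11.52, 11.48 and 11.32 in the rescued arrays. Within a line the rescued array was 0.086 to 0.22 higher, but the groups overlapped because line 84 was lower in both. The mean level was 1.12-fold (95% interval 1.03 to 1.21) higher in the rescued cells, with an adjusted p of 0.336, which did not pass.

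The medium subunit Ap2m1, which binds tyrosine-based cargo signals, was at 10.62, 10.73, 10.73 and 10.54 in the Picalm -/- arrays and 10.84, 10.77, 10.74 and 10.71 in the rescued arrays, a difference of 0.11 (95% interval -0.021 to 0.24, adjusted p = 0.451). The beta subunit Ap2b1, which binds clathrin, was at 9.75, 9.80, 9.68 and 9.83 in the Picalm -/- arrays and 9.89, 9.91, 9.76 and 9.87 in the rescued arrays, a difference of 0.093 (95% interval -0.013 to 0.20, adjusted p = 0.439). Neither passed the test, and the arrays of the groups overlapped for both. Of the alpha subunits, which bind the membrane lipid, Ap2a1 was at 8.33, 8.37, 8.28 and 8.49 in the Picalm -/- arrays and 8.30, 8.36, 8.43 and 8.43 in the rescued arrays and Ap2a2 was at 9.40, 9.22, 9.15 and 9.26 in the Picalm -/- arrays and 9.44, 9.30, 9.17 and 9.23 in the rescued arrays. Their differences were 0.011 (95% interval -0.12 to 0.14, adjusted p = 0.943) and 0.030 (95% interval -0.075 to 0.14, adjusted p = 0.788), with signs that varied between lines. The other 4 probe sets of Ap2a2 gave means of 0.12, 0.14, 0.16 and 0.16 in order of signal, the first of them higher in all 4 lines, and none passed (adjusted p from 0.432 to 0.565). The second probe set of Ap2b1 gave 0.025 and was higher in 3 lines.

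**Figure D3:**
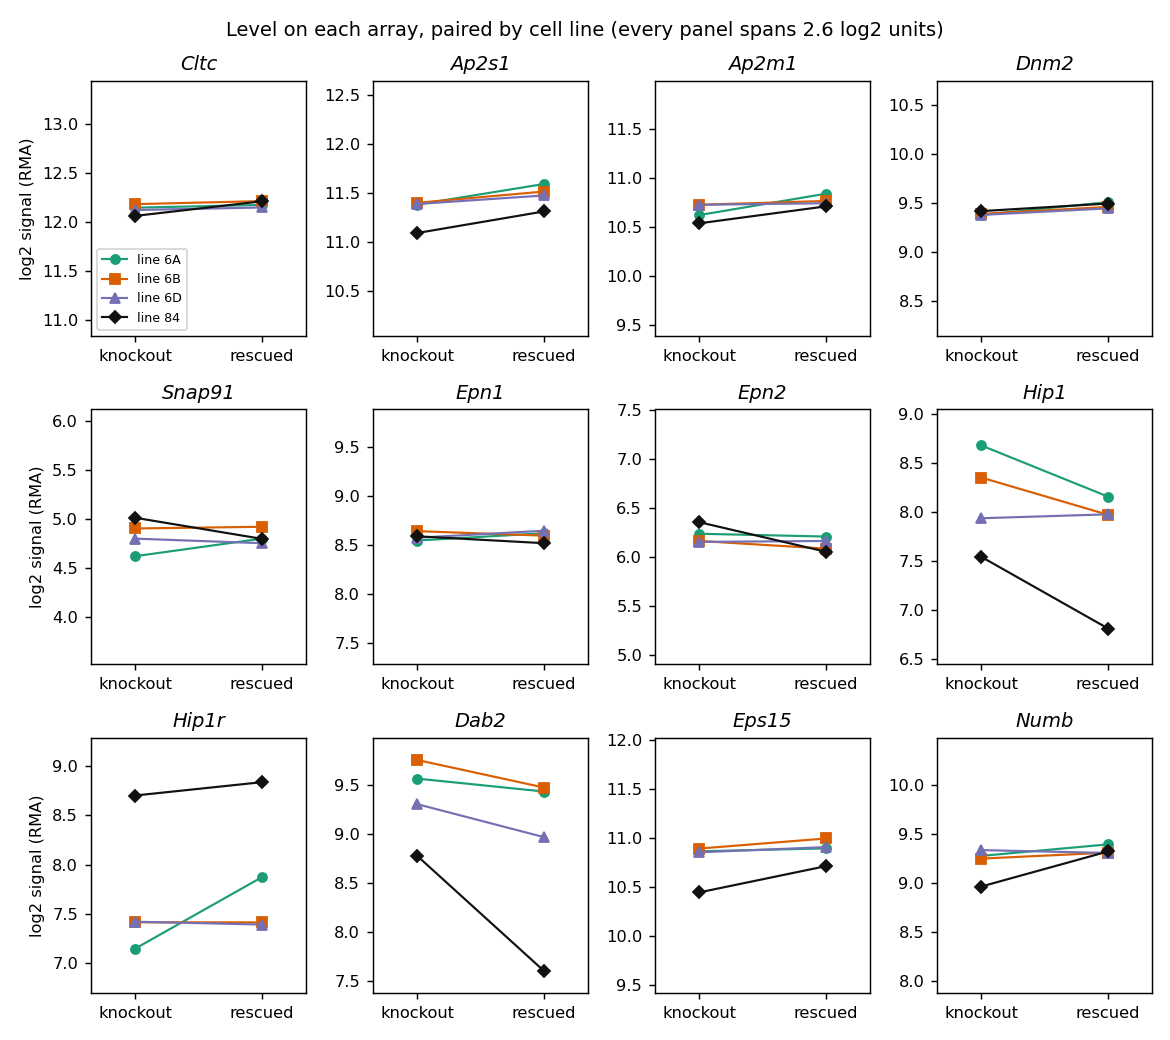
Log2 signal of 12 members on each array, with the Picalm -/- and the rescued array of a line joined. Every panel spans 2.6 log2 units, so slopes can be compared across panels, but heights of different genes cannot. Cltc, Dnm2 and Epn1 are nearly level, Ap2s1 is slightly higher in each rescued array, Hip1 is lower in 3 of them, and Dab2 is lower in every rescued array, most of all in line 84.

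Differences of the Golgi and endosome adaptors were small as well. All 4 AP-1 subunits had means above 0, from 0.034 for Ap1b1, the large beta subunit, and 0.058 for the medium subunit Ap1m1 to 0.085 for Ap1s1. The gamma subunit Ap1g1, which binds membrane and accessory proteins, was at 9.54, 9.53, 9.53 and 9.31 in the Picalm -/- arrays and 9.61, 9.63, 9.58 and 9.41 in the rescued arrays, higher in every line, with a difference of 0.080 (95% interval -0.020 to 0.18, adjusted p = 0.473). The small subunit Ap1s1 was at 10.32, 10.38, 10.32 and 10.10 in the Picalm -/- arrays and 10.35, 10.48, 10.39 and 10.25 in the rescued arrays, also higher in every line, with a difference of 0.085 (95% interval -0.024 to 0.19, adjusted p = 0.480). Of the AP-3 subunits, which direct cargo to lysosome-related organelles, Ap3d1 was higher in every line at a mean difference of 0.081, while Ap3b1 (-0.041) and Ap3m1 (0.059) took their sign from line 84. Without line 84 the signs of both turned, and none of the 3 passed. These values are from the brightest probe sets, and the sign varied with the probe set too. The second probe set of Ap3b1 was at 0.017, and the others of Ap3m1 were at -0.071, 0.019 and 0.20.

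Early scaffold proteins start and grow the pit. Eps15, which gathers AP-2 and epsins, was at 10.86, 10.89, 10.85 and 10.44 in the Picalm -/- arrays and 10.89, 10.99, 10.90 and 10.71 in the rescued arrays. The rescued array was higher in every line, with the widest gap in 84 (0.27) and a mean of 0.11 (95% interval -0.025 to 0.25, adjusted p = 0.459). Its second probe set was also higher in every line, with a mean of 0.28 of which line 84 gave the largest difference, 0.83. By their brightest probe sets, the paralogue Eps15l1 (0.065) and the scaffold Itsn2 (0.079, and 0.021 without line 84) were higher in every line too. The second probe set of Eps15l1 was at -0.00089, higher in 2 lines and lower in 2. The other probe sets of Itsn2 were at 0.16 and 0.13, each higher in 3 lines. Itsn1 was at 0.018, and Fcho1, a membrane-bending nucleator of pits, was at -0.074 with lines on either side of 0. None passed the test.

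Cargo adaptors included the member with the largest difference. Dab2, a clathrin adaptor for lipoprotein receptors and integrins, was at 9.56, 9.75, 9.30 and 8.77 in the Picalm -/- arrays and 9.43, 9.47, 8.96 and 7.60 in the rescued arrays. Every rescued array was lower than the Picalm -/- array of its line, by a log2 difference of -0.13 in 6A, -0.28 in 6B, -0.34 in 6D and -1.17 in 84. The groups still overlapped, and the line 84 array was the lowest of each group. Dab2 was 1.40-fold (95% interval 1.03 to 1.89) higher in the Picalm -/- cells, with an adjusted p of 0.370, which did not pass.

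A second Dab2 probe set (1423805_at) was lower in the rescued array of all 4 lines as well, with a difference of -0.51 (95% interval -0.87 to -0.16, adjusted p = 0.328), and the dimmest (1430604_a_at) was at -0.019 (95% interval -0.15 to 0.11, adjusted p = 0.897). Leaving out line 84 changed the mean of the brightest probe set from -0.48 to -0.25, more than 1.5 times smaller. Line 84 thus gave much of the size of the Dab2 difference, while 6A, 6B and 6D were lower after rescue as well. In the fit without pairing, leaving out only the rescued array of line 84 gave -0.059. That fit kept the Picalm -/- array of line 84, the lowest of its group, so it compared unlike sets of lines. Numb, an adaptor that sorts Notch and integrins, was at 9.28, 9.25, 9.34 and 8.97 in the Picalm -/- arrays and 9.40, 9.31, 9.31 and 9.32 in the rescued arrays, with a difference of 0.13 (95% interval -0.052 to 0.31, adjusted p = 0.506) and the opposite sign for its second probe set (-0.058).

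Among the scission and membrane-bending proteins, Dnm2, the dynamin of most tissues, was the only member whose groups did not overlap. It was at 9.38, 9.39, 9.38 and 9.42 in the Picalm -/- arrays and 9.51, 9.46, 9.45 and 9.49 in the rescued arrays. All rescued arrays were above all Picalm -/- arrays, as was so in either direction for 3.52% of all genes. The mean level was 1.06-fold (95% interval 0.99 to 1.14) higher in the rescued cells and did not pass in limma (adjusted p = 0.447). An exact permutation test over the 16 sign changes of the lines gave p = 0.125 (two-sided), the smallest that 4 lines allow. All 7 probe sets of Dnm2 had means above 0, from 0.040 to 0.18, but not all were higher line by line. One of them (1437938_x_at) was higher in 2 lines and lower in 2. The dimmest (1432005_at) was higher in 1 line and lower in 3. Line 84 had the largest difference in both, 0.27 and 0.31.

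The neuronal members of this group were dim. Dnm3 was at 4.66, 4.70, 4.82 and 4.71 in the Picalm -/- arrays and 4.86, 4.94, 4.74 and 4.83 in the rescued arrays, with a difference of 0.12 (95% interval -0.039 to 0.28, adjusted p = 0.487). The neuronal dynamin Dnm1 (0.042), amphiphysin Amph (-0.011) and the neuronal endophilin Sh3gl2 (0.061) were also in the dimmest 40% of probe sets. Sh3gl1, the widely expressed endophilin, was lower in every line by a small margin (-0.047), and Snx9, a BAR protein that binds dynamin, had a mean of 0.00038 with an interval of -0.12 to 0.12. Another, dimmer probe set of Sh3gl2 was lower in every rescued array (-0.19, adjusted p = 0.323) and, with that of Hip1, made up the 2 of 86 member probe sets called by paired SAM.

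The regulators of AP-2 and of uncoating had differences from -0.061 to 0.075 by their brightest probe sets. Gak, the kinase that recruits the uncoating chaperone outside neurons, was at 10.17, 10.18, 10.17 and 10.02 in the Picalm -/- arrays and 10.28, 10.23, 10.23 and 10.10 in the rescued arrays. Every rescued array was higher than its pair, with a mean of 0.075 (95% interval -0.025 to 0.18, adjusted p = 0.490). The second, dim probe set of Gak was at -0.0027. Aak1, which phosphorylates the medium subunit of AP-2, was at 0.063, and the AP-2 binding proteins Necap1 and Necap2 were at -0.061 and 0.032, each with lines on either side of 0. The other probe sets of Aak1 ran from -0.061 to 0.28.

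Some members differed clearly between lines. Most were alike, with a median range of line means of 0.197 on the log2 scale, beside 0.211 over all genes. In 6 members it was above 0.5, namely Hip1, Hip1r, Dab2, Snx9, Fcho1 and Itsn2. Line 84 was the highest or lowest in each of these. Snx9 was at 9.58, 9.75, 9.75 and 8.55 in the Picalm -/- arrays and 9.68, 9.70, 9.75 and 8.50 in the rescued arrays, and Itsn2 was at 10.17, 10.21, 10.19 and 9.44 in the Picalm -/- arrays and 10.20, 10.24, 10.21 and 9.70 in the rescued arrays. In both genes line 84 lay below the other lines whether PICALM was present or not. With 1 array per line and group, differences between lines were not tested.

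**Figure D4:**
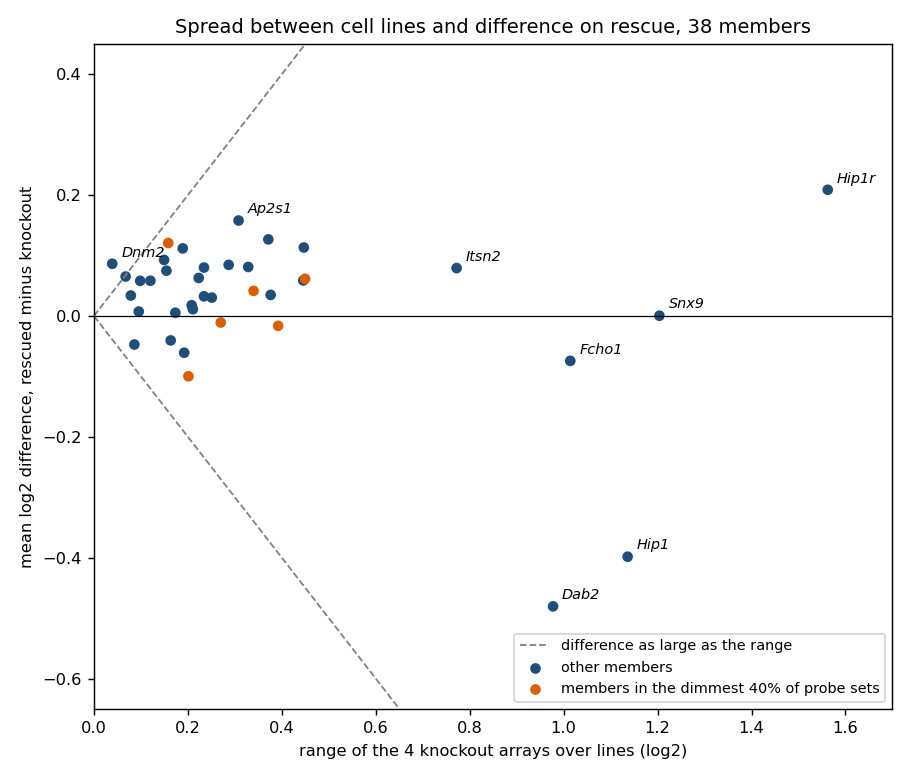
Mean log2 difference on rescue against the range of the 4 Picalm -/- arrays over cell lines, for the 38 members. Orange points are members in the dimmest 40% of probe sets, and dashed lines mark a difference as large as the range. The lines are a guide only, since a range of single arrays exceeds a mean difference for 94.9% of all genes, and for 37 of the 38 members. Hip1, Hip1r, Dab2, Snx9 and Fcho1 have the widest ranges.

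Genes that work beside the members were read from 9 further lists, with 114 of 137 genes measured. None passed in limma, and 13 were higher and 4 lower at an unadjusted p under 0.05, together 14.9%, close to the 13.1% of all genes. In all 4 lines, 29 of the 114 were higher (25.4%) and 6 lower (5.26%), beside 13.4% and 12.0% of all genes, and the median difference was 0.040. Single lists are short, and 2 of 14 or 2 of 13 genes higher in every line is about the share over all genes. Of the other AP, GGA and epsin-related adaptors, 3 of 16 were higher and 2 lower in every line, with Ap4b1 at 0.15, Tepsin at 0.10 and Gga2 at 0.097 against Ap1m2 at -0.12. The 14 cargo and ubiquitin-sorting adaptors included 6 that were higher in every line, with the arrestin Arrb2 at 0.32 (95% interval 0.12 to 0.53, adjusted p = 0.320), the ubiquitin ligase Cbl at 0.25, the endosomal adaptor Tom1 at 0.33 and the Numb paralogue Numbl at 0.12.

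The list of phosphoinositide enzymes and uncoating genes held the largest difference of the 9 lists, that of Pip5k1b. This kinase, which makes phosphatidylinositol 4,5-bisphosphate, had a difference of 0.62 (95% interval 0.31 to 0.94, adjusted p = 0.285) and the phosphatase Inpp4a 0.38, while the phosphatase Inppl1 was at -0.30 and lower in every line. Inpp5b was at 0.093, and 4 of 12 genes of this list were higher and 1 lower in every line. Among the BAR and SH3 proteins 2 of 14 were higher, the Cbl-binding Sh3kbp1 (0.27) and Bin3 (0.15), and 2 lower, the Sh3kbp1 relative Cd2ap (-0.38) and Sh3glb1 (-0.18). On early endosomes the GTPase Rab5b was at 0.29 (95% interval 0.16 to 0.43, adjusted p = 0.254), with Rab4a at 0.15, Rab5c at 0.093 and the effector Rabep1 at -0.12, and 4 of 17 were higher and 1 lower in every line. The actin regulators Was (0.11) and Arpc5 (0.085) were the 2 of 13 higher in every line. Pip5k1b and Rab5b were the 2 of 114 genes called by paired SAM, which called 2.70% of all probe sets.

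Coats that work without clathrin also had genes that were higher throughout. In every line 3 of 10 genes of COPI, the coat of Golgi vesicles, were higher, Copg2 (0.11), Copb2 (0.050) and Arf1 (0.034), as were 3 of 9 of COPII, the coat of vesicles from the endoplasmic reticulum, Sar1a (0.12), Sar1b (0.10) and Sec31a (0.063). Median differences were 0.031 and 0.043. Of 9 genes of clathrin-independent uptake, the flotillins Flot2 (0.49) and Flot1 (0.17) were higher in every line, Flot2 with a mean of 0.28 without line 84, and the median was 0.028.

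**Figure D5:**
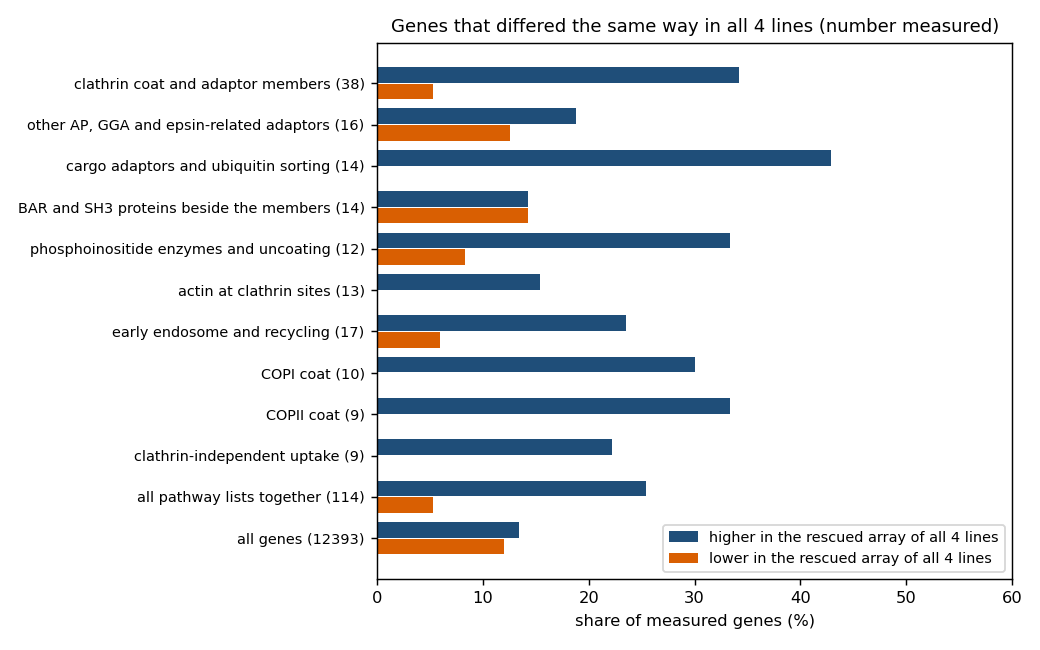
Share of measured genes, in percent, that were higher (blue) or lower (orange) in the rescued array of all 4 lines, for the members, the 9 further lists and all genes, with the number measured in brackets. The members reach 34.2%, the COPII list 33.3% and the COPI list 30.0%, beside 13.4% of all genes.

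The cells carried the markers of myeloid progenitors: all 9 measured progenitor markers, among them Myb, Hoxa9 and Spi1, were outside the dimmest 40% of probe sets, and the list averaged 10.85 to 10.97 in the Picalm -/- arrays and 10.79 to 10.93 in the rescued arrays. That average hid differences in both directions, from -1.25 to 0.29 on the log2 scale. In limma 2 of these 9 genes were higher and 2 lower at an unadjusted p under 0.05. The median size of their differences was 0.205, beside 0.064 over all genes. Other marker lists differed between groups or lines as well, though 0 genes of any marker list were called in limma. The neutrophil granule list (12 genes measured, 11 outside the dimmest 40%) averaged 7.97 to 9.41 in the Picalm -/- arrays and 9.85 to 11.30 in the rescued arrays, without overlap of the groups, and 9 of the 12 were higher in all 4 lines. The mast cell and basophil list (9 measured, 3 outside the dimmest 40%) averaged 5.70 to 7.02 in the Picalm -/- arrays and 5.90 to 8.36 in the rescued arrays, with line 84 highest in each group, and the interferon list (10 measured, 5 outside) averaged 5.80 to 10.29 in the Picalm -/- arrays and 5.76 to 7.45 in the rescued arrays, line 84 being highest in both. The azurophil granule list (5 measured, all outside the dimmest 40%) averaged 12.78 to 13.95 in the Picalm -/- arrays and 13.67 to 14.01 in the rescued arrays, had a higher mean in all 4 lines after rescue, and had 3 genes higher in all 4 lines. The monocyte, megakaryocyte, erythroid and lymphoid lists overlapped between the groups. Outside the dimmest 40% were 7 of 9 monocyte, 5 of 8 megakaryocyte, 3 of 6 erythroid and 2 of 7 lymphoid genes. In bulk RNA, fewer cells of a type and less RNA per cell cannot be told apart, and the part of these markers in the differences of Ap2s1, Hip1, Dab2 and the other members was not tested.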

How the data were processed

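Biotin-labelled RNA was hybridized to 8 Affymetrix arrays. The number of rows fits the A version of the mouse array, as in the titles, and not the larger version that the methods name. The authors made the values by RMA, and the deposited log2 values were used without further normalization; 64 control probe sets were left out. Probe sets with a single symbol in GEO's annotation (20380 of 22626) were named, and 691 with several and 1555 with none were not. Arrays give no molecule counts, so their number limits the precision.

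Rescued and Picalm -/- arrays were compared with limma 3.58.1 (R 4.3.3), two-sided, with cell line as a block and Benjamini-Hochberg adjustment over all 22626 probe sets, called at 0.05. Each line supplied 1 array per group, which pairs the arrays. Deviations of these pairs from their groups had correlations of 0.623 to 0.811, and all 8 arrays correlated best with their own line. The methods name SAM at an FDR of 12.3%, which was run paired as an alternative over 16 sign changes, with the methods' t-test and the settings listed in the closing section.

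All 40 members were named, with every array for the chains, AP-2, the relatives of PICALM and the 8 other members with the smallest p; a few more were added after their values were seen (Snx9 and Itsn2). Up to 4 genes per list were named, those alike in all 4 lines with the smallest p. Members and lists were chosen with earlier results of these data known. Each line gave 1 culture per group, so p-values measure the spread over these 4 lines. Promoter sequences are from RefSeq (GRCm38.p6).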

Additional observations from a re-analysis of the deposited data

Results flagged for a closer look

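In 13 of the 76 groups of 4 arrays of the members (17.1%), 1 array lay far from the other 3 by Dixon's criterion, which chance meets in about 1 in 20 groups. In all 13 that array was from line 84. The same share was not counted over all genes, so these counts cannot be read as particular to the members. Log2 levels are given with the next nearest array of the group. The Picalm -/- array of line 84 was low for Ap1g1 (9.31, next 9.53), Ap2s1 (11.10, next 11.39), Ap3d1 (10.10, next 10.38), Ap3m1 (10.01, next 10.42), Eps15 (10.44, next 10.85), Itsn2 (9.44, next 10.17), Snx9 (8.55, next 9.58) and Gak (10.02, next 10.17), and high for Sh3gl2 (5.47, next 5.06). The rescued array of line 84 was low for Ap3m1 (10.35, next 10.39), Hip1 (6.82, next 7.98), Itsn2 (9.70, next 10.20) and Snx9 (8.50, next 9.68).

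The named genes of the other lists gave 13 further such groups, again all with line 84 apart. Together with the members this made 26 of 136 groups (19.1%). The named genes had been picked for the same direction in all 4 lines, so they do not stand for their lists. Its Picalm -/- array was low for Cbl (9.27, next 9.89), Tom1 (10.10, next 10.88), Sh3kbp1 (9.91, next 10.57), Bin3 (10.68, next 11.03), Inpp4a (7.56, next 8.28), Arpc5 (12.33, next 12.67), Arf1 (13.33, next 13.51), Sar1b (11.53, next 11.76) and Flot2 (9.01, next 11.24), and high for Inpp5b (10.51, next 10.38) and Rab4a (6.01, next 5.40). Its rescued array was low for Arf1 (13.40, next 13.52), and high for Rab4a (6.10, next 5.57). Without line 84, the paired log2 difference was 0.14 for Ap2s1, -0.29 for Hip1, 0.062 for Eps15 and 0.074 for Gak. Leaving out line 84 turned the sign of the difference or made it over 1.5 times smaller in 14 of the 38 members and in 9 of the named genes of the other lists. By the same rule the members numbered 9 without 6A, 6 without 6B and 6 without 6D. The named genes numbered 0 without 6A, 1 without 6B and 0 without 6D. These shares were not counted over all genes.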

How the results depend on the processing

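The count of called members was 0 under every alternative run: without the replicate block (0 of 38), with the methods' t-test after Benjamini-Hochberg adjustment (0, and 1, Dnm2, at 0.05 unadjusted), with paired SAM and with limma at the FDR threshold of the methods, with quantile normalization, median centring, no dim probe sets, other choices of probe set, array weights, a variance trend, and each line or array left out. The count of called pathway genes was 0 in all of these except paired SAM. That setting gave 2 of 114, Pip5k1b and Rab5b, beside 2.70% of all probe sets.

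The median member difference stayed above 0 throughout. It was 0.042 with quantile normalization, 0.058 with centring, 0.058 without the dimmest probe sets, 0.034 with the mean over the probe sets of a gene, 0.042 with array weights and 0.015 with the second-brightest probe sets (24 members), and it ran from 0.032 to 0.054 when a line was left out of the paired fit, from 0.033 to 0.059 when a Picalm -/- array was left out of the unpaired fit and from 0.035 to 0.051 when a rescued array was. Without the block it was 0.050, since the paired and the unpaired fit share their means. Of the 24 members with a second probe set, 8 were higher in every line by the brightest and 2 by the second-brightest. Those lower in every line numbered 1 with centring, and 2 to 7 when a line was left out, 7 without 6D and 4 without 84, while those higher numbered 13 to 18. Leaving out a line makes agreement over lines easier to reach by construction.

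Member signs turned in 0 members with either normalization, in 3 with the mean over probe sets, in 8 of 24 with the second-brightest, in 4 without line 84 and in at most 8 without a single array, and no member was called on either side of such a turn. The fits without a single array were unpaired and compared unlike sets of lines. Hybridization signal limits the 6 members in the dimmest 40% of probe sets, whose intervals hold for the signal and not for transcript number.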
